A study of Macaca mulatta with 27 samples.

Results

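GATA3, KRT8 and CDX2 are genes used to mark the outer cells of the early embryo and the epithelia that arise from them, and they were followed here across 10 rhesus macaque embryonic stem cell lines. They were chosen by name: every probe set that the array's annotation assigns to one of them alone was taken, which gave 5 probe sets for 3 of the 14132 genes so represented. GATA3 had the probe sets MmuSTS.4820.1.S1_at and MmugDNA.22186.1.S1_at, CDX2 had MmunewRS.388.1.S1_s_at and MmugDNA.29651.1.S1_at, and KRT8 had 1. In the RefSeq table of the rhesus assembly MMU8v2.0, GATA3 lies on chromosome 9, KRT8 on chromosome 11 and CDX2 on chromosome 17. Where a gene had more than 1 probe set, the brighter one stands for it below, and the other is named where it is used. A further probe set, MmugDNA.6510.1.S1_s_at, is annotated to KRT8 together with 8 other loci and was assigned to no gene.

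Total RNA from 27 samples of these lines was hybridised to 27 Affymetrix rhesus arrays. The male lines were 106, 306, 906, 2706 and 3106 (15 arrays), and the female lines were 2906, 206, 2406, 3006 and 3806 (12 arrays). The quadruplet lines 2706, 2906, 3006 and 3106 had sire M106 and dam F88, and the triplet lines 106, 206 and 306 had sire M106 and dam F244. The sire of lines 2406 and 3806 was also M106, with dams F77 and F32, while line 906 had sire M36 and dam F183. Line 2906 was represented by 1 array and line 206 by 2, and every other line by 3. All lines shared one culture protocol: mouse embryonic fibroblast feeders inactivated with mitomycin C, with bFGF at 12 ng/mL, activin A at 10 ng/mL and hLIF at 10 ng/mL, and RNA came from colonies scraped for their morphology. The outer cells of each blastocyst had been lysed with antiserum and complement before the inner cell mass was plated, a step that removes the trophectoderm at derivation. Nothing in the labels ties the arrays of one line to different cultures, and the p-values below therefore rest on array-to-array spread that may be technical. Signals come from bulk RNA, in which more cells of a kind and more RNA per cell cannot be told apart.

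Trophectoderm is the first epithelium of the mammalian embryo and gives rise to the placental trophoblast. In mouse, the transcription factor CDX2 is needed to maintain it, and GATA3, a zinc finger transcription factor, acts beside CDX2 in its formation. GATA3 is also expressed in human trophoblast and amnion, and primate pluripotent cells treated with BMP express it. KRT8 is a type II keratin that pairs with the type I keratins KRT18 and KRT19 to form the intermediate filaments of simple epithelia, trophectoderm included, and undifferentiated primate embryonic stem cells, which grow as an epithelial sheet, also express simple epithelial keratins.

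The arrays were not alike in quality. Detection calls of present covered 38.2% to 46.9% of probe sets per array. The 3' to 5' signal ratio of the GAPDH control probe sets, which is higher where the labelled RNA covers the 5' end less well, ran between 1.49 and 13.3 with a median of 2.10. It was over 3 on 6 arrays, 1 of them from a male line and 5 from female lines, and the highest value was that of the only array of line 2906. The median signal ran between 94.1 and 159.7 intensity units, and the 4 arrays with the highest medians were 1 each of lines 106, 206, 306 and 906, all with the letter c in their labels, a letter the labels do not explain. The pluripotency factors POU5F1 and SOX2 were called present on all 27 arrays and NANOG on 26.

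GATA3 and KRT8 were detected in nearly every sample, and CDX2 in none. GATA3 was called present on 26 of 27 arrays with its brighter probe set, the exception being an array of line 106, and on 22 with the other, and both probe sets were called present on 21. KRT8 was called present on 26 arrays and absent on 1, the array of line 2906. Both CDX2 probe sets were called absent on all 27 arrays. Over all 14132 genes, 49% were called present on all 27 arrays and 22.9% on none, so CDX2 shared its state with many genes on this array. An absent call says that the signal did not stand out from the mismatch background, not that the transcript was missing.

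**Figure D1:**
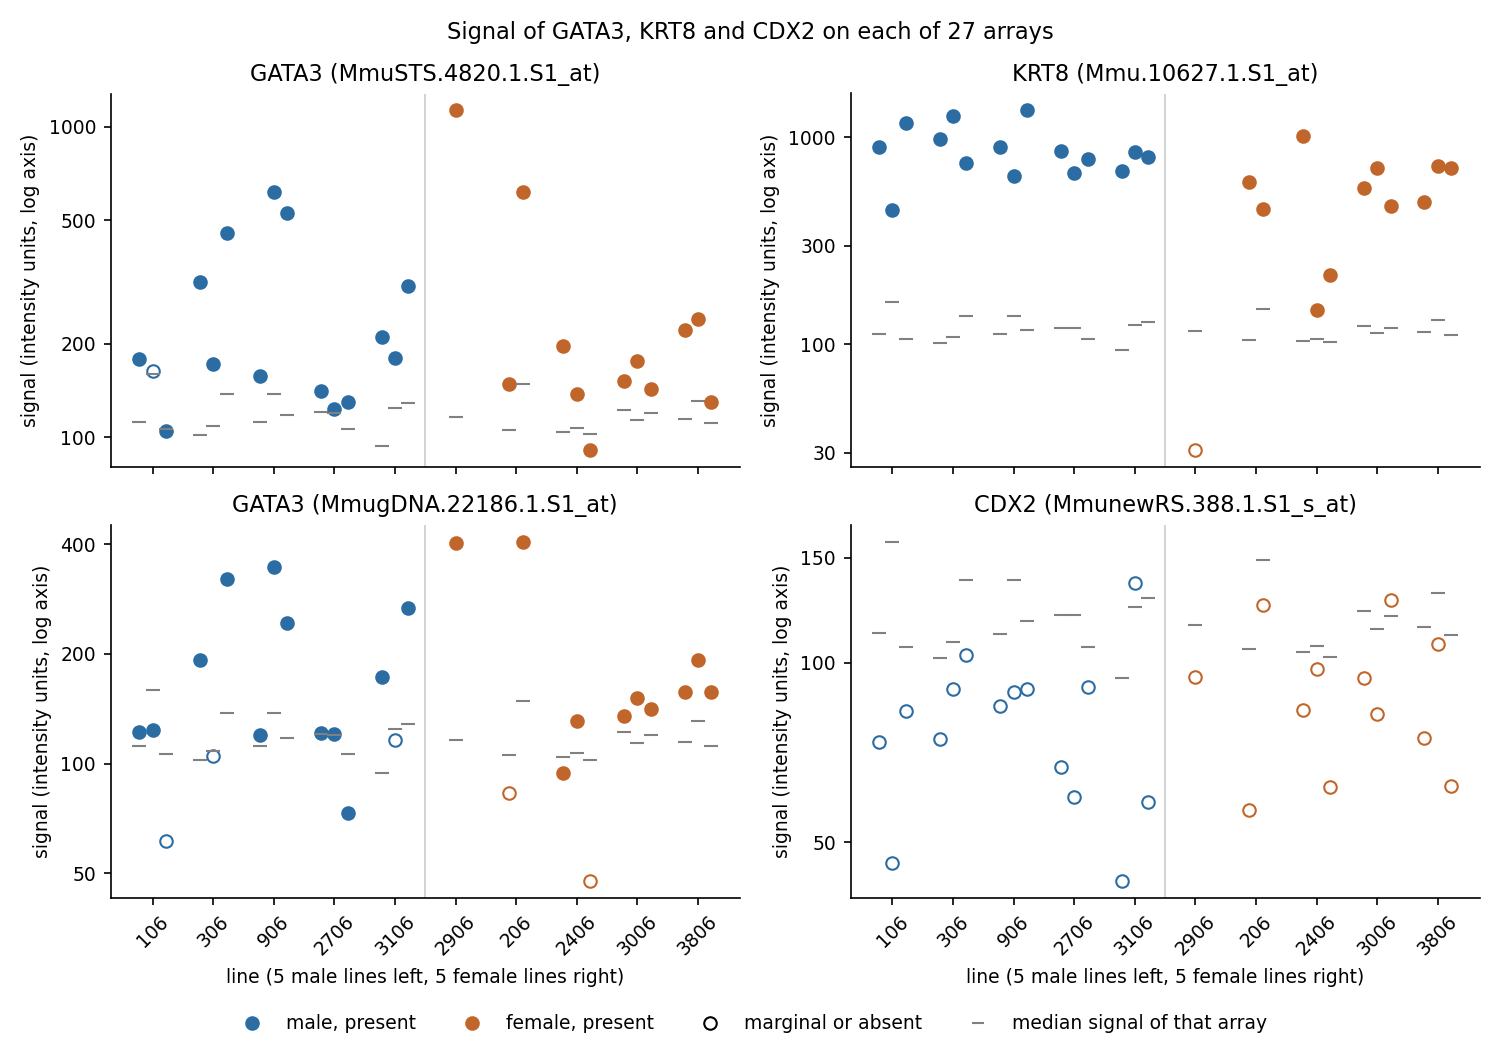
Signal in intensity units (log axis) of both GATA3 probe sets, KRT8 and the brighter CDX2 probe set on each of 27 arrays, grouped by line, with 5 male lines on the left and 5 female lines on the right. Filled points are calls of present, open points marginal or absent, and grey dashes the median signal of the same array; line 2906 has the highest GATA3 point (1128.9) and the lowest KRT8 point (31.1), and all CDX2 points are open.

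GATA3 was highest in line 2906 and otherwise low, with large differences between arrays of a line. Its signal was 1128.9 intensity units on the array of line 2906. Line 906 had 618.6, 527.2 and 157.9, line 206 had 614.5 on one array and 148.9 on the other, and line 306 had 456.1, 316.6 and 172.5. These 3 lines thus held both high and low arrays. The other lines were lower: line 3106 had 308.2, 209.8 and 180.1, line 3806 had 241.1, 221.3 and 129.7, and line 3006 had 175.8, 151.7 and 143.6. The lowest signals were those of line 106, at 178.4, 164.1 and 104.7, of line 2406, at 197.1, 137.5 and 91.3, and of line 2706, at 141.2, 129.5 and 123. Line 2706 was the most even of them, and the lowest single array of all was in line 2406. The single array of line 2906 was above all 26 others.

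On the log2(signal + 16) scale, the line mean of GATA3 was 10.16 in line 2906, and the other 9 lines averaged 7.78 ± 0.53 (SD over lines). In descending order these were 906 at 8.61 ± 1.02, 206 at 8.33 ± 1.37, 306 at 8.27 ± 0.67, 3106 at 7.93 ± 0.37, 3806 at 7.69 ± 0.44, 3006 at 7.43 ± 0.14, 106 at 7.34 ± 0.37, 2406 at 7.25 ± 0.50 and 2706 at 7.20 ± 0.09 (SD over the arrays of a line). No 2 neighbours in this order differed beyond their spread by limma's contrast of lines, with adjusted p-values of at least 0.160. The line means spanned 2.96, a wider span than in 99.0% of the 11299 genes tested, for which the median span was 0.859. Without line 2906 the span of GATA3 was 1.41, wider than in 90.0% of genes.

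Across the 10 lines GATA3 differed by limma's F test (adjusted p = 0.0311). Of all 32856 probe sets tested, 16.6% passed the same test, and of the genes, each by its brightest probe set, 17.4%. Without line 2906 the call was lost (adjusted p = 0.177), while 12.1% of probe sets and 13.2% of genes still passed. It was also lost without one array of line 906 (527.2, adjusted p = 0.0555), without line 2706 (0.0583) and without line 3006 (0.0583). With the array letter as a block the adjusted p was 0.0887 (12.7% of genes passing), with the GAPDH ratio as a covariate 0.0716 (16.4%), and with no filter on low values 0.0539 (9.58%). Of 45 pairs of lines, 6 differed in GATA3, each of them line 2906 against another line. Over all probe sets and pairs 3.01% of tests passed, and in a pair with line 2906 it was 2.29% to 7.88% of probe sets. In those 6 pairs line 2906 was higher by 2.24 to 2.96, with a standard error of 0.66. Against lines 206, 306 and 906 the differences were 1.83, 1.89 and 1.55 and did not pass (adjusted p = 0.132, 0.0899 and 0.160). The single array of line 2906 has no spread of its own and was assumed to vary like the arrays of the other lines.

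The other GATA3 probe set gave the same order at the top and a narrower span. Its signal was 404.4 on the array of line 2906, and on the other 26 arrays it ran between 47.7 and 407 intensity units. The highest of those was an array of line 206 whose partner had 83. The line mean was 8.72 in line 2906, against 7.87 in line 906, 7.68 in line 206 and 7.67 in line 306, and the lowest was 6.66 in line 2406. It did not pass limma's F test (adjusted p = 0.197) and no pair of lines differed. Over the 27 arrays the probe sets followed each other with Pearson r = 0.901, and with r = 0.892 over deviations of 26 arrays from their line mean, so that arrays of one line that differed in one probe set differed likewise in the other. These coefficients describe arrays that share lines and scaling.

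KRT8 was close to background in line 2906 and above the array median on all 26 arrays of the other 9 lines. Its signal on the array of line 2906 was 31.1 intensity units. The highest signals were in line 906, at 1347.5, 892.9 and 649.5, line 306, at 1273.9, 977.9 and 754.6, and line 106, at 1167, 900.7 and 444.6. Line 3106 had 845.6, 805.4 and 685.3, line 2706 had 858.2, 783.6 and 672.6, and line 3806 had 727.3, 712.2 and 486.9. All of these arrays were well above their median signal. Line 3006 had 711, 568 and 466.8, and line 206 had 609 and 449.6. Line 2406 was split, with 1016 on one array and 215.3 and 146.7 on the others. No other array came as low as that of line 2906.

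The line mean of KRT8 was 5.56 in line 2906 on the log2 scale, and the other 9 lines averaged 9.41 ± 0.48 (SD over lines). They were in descending order 306 at 9.96 ± 0.37, 906 at 9.87 ± 0.52, 106 at 9.63 ± 0.70, 3106 at 9.63 ± 0.16, 2706 at 9.61 ± 0.17, 3806 at 9.34 ± 0.32, 3006 at 9.20 ± 0.30, 206 at 9.08 ± 0.30 and 2406 at 8.40 ± 1.42. In this order only the last step, from line 2906 to line 2406, differed beyond the spread, by 2.85 (adjusted p = 0.0247 by limma). KRT8 was called absent on the only array of line 2906, so its signal there did not stand out from background. By that signal, line 2906 was 14.5-fold lower than the mean of the other 9 lines on the log2(signal + 16) scale. That value rests on 1 array and is not a limit on the level in the line. The span of line means, 4.40, was wider than in 99.9% of genes tested, and 0.00885% of genes lay further below the other lines in line 2906. Without line 2906 the span was 1.56, wider than in 92.8% of genes.

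KRT8 differed across the 10 lines by limma's F test (adjusted p = 0.00424). Of 45 pairs of lines, 9 differed, beside 3.01% of tests over all probe sets and pairs. These were line 2906 against each of the other 9, pairs in which 2.29% to 7.88% of all probe sets passed. In them line 2906 was lower, by 2.85 relative to line 2406 and by 3.52 to 4.40 relative to the others (standard errors 0.66 and, for line 206, 0.70). These differences rest on 1 array with an absent call. No pair among the other 9 lines passed, and the lowest adjusted p among them was 0.0675. Without line 2906 the difference among lines was lost (adjusted p = 0.250). The probe set shared between KRT8 and 8 other loci was called present on all 27 arrays and had its lowest signal, 439.5 intensity units, on the array of line 2906, against 526 to 1243.3 on the other arrays. Its line mean there lay 0.86 below the mean of the other 9 lines, a smaller distance than that of the KRT8 probe set, and over the 27 arrays the pair had r = 0.716.

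The level of KRT8 moved with the GAPDH ratio of the array. On the 6 arrays with a ratio over 3, its signal ran between 31.1 and 568 with a median of 330, and on the other 21 arrays between 449.6 and 1347.5 with a median of 783.6. The same held inside lines: in the 3 lines that had both kinds of array (106, 2406 and 3006), every array with a ratio over 3 had less KRT8 than every other array of its line. In line 2406 these were the arrays at 146.7 and 215.3, against 1016. Each side held only 1 or 2 arrays, and the share of all probe sets with the same order was not counted. Over 27 arrays log2 KRT8 and the log2 ratio had r = -0.799, over the 26 arrays without line 2906 r = -0.577, and over deviations from the line mean r = -0.763. Among the 21 arrays with a ratio up to 3 it was r = -0.474. Without the 6 arrays, which takes out line 2906 altogether, KRT8 did not differ among the remaining lines (adjusted p = 0.277) and neither did GATA3 (0.455), with 8.23% of genes passing. With all 27 arrays and the GAPDH ratio as a covariate, KRT8 differed among lines (adjusted p = 0.0181), beside 16.4% of genes. The part of the high GAPDH ratio in the low KRT8 signal of line 2906 was not tested, and line and array cannot be told apart there.

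GATA3 moved with the median signal of the array. On the 4 arrays with the highest medians its signal ran between 164.1 and 618.6 with a median of 535.3, and on the other 23 between 91.3 and 1128.9 with a median of 172.5. In 3 of the 4 lines that held such an array it had the highest GATA3 signal of its line, and with the other probe set in 4 of 4. KRT8 ran the other way: in 4 of 4 lines the same arrays had the lowest KRT8 signal of their line. Each such order sets 1 array against 1 or 2 others, and its share over all probe sets was not counted. Over deviations from the line mean, log2 GATA3 and the log2 array median had r = 0.579. The array of line 2906 had a median of 115.9, and its GATA3 signal was the highest of all with the brighter probe set, while with the other it had 404.4, against 407 on the array of line 206 with a high median. With the GAPDH ratio GATA3 had r = 0.348 over 27 arrays, r = 0.399 among the 21 arrays with a ratio up to 3 and r = 0.099 over deviations from the line mean. In 2 of the 3 lines with both kinds of array, those with a ratio over 3 had less GATA3 than the others of their line. The share of all probe sets with that order was not counted either. The part of the array median, the GAPDH ratio and the array letter in the GATA3 signals was not tested.

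**Figure D2:**
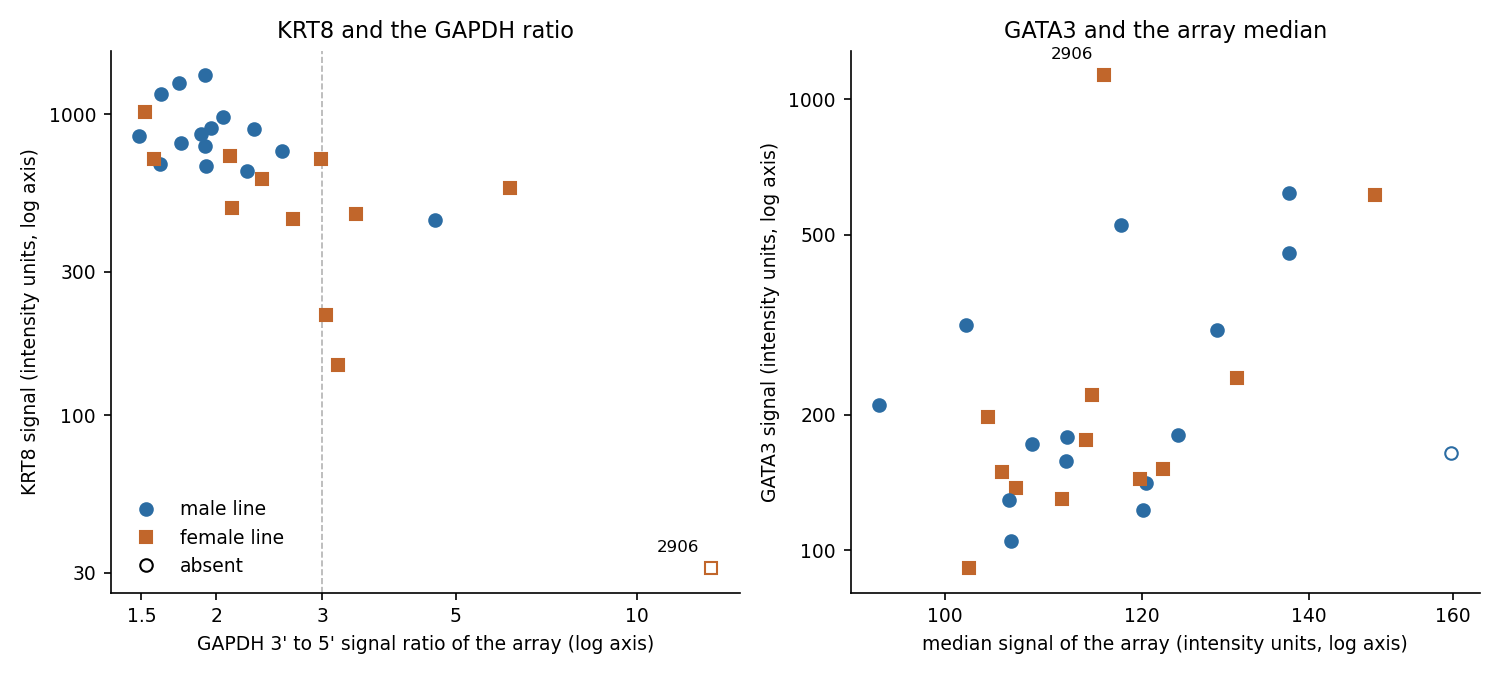
Left, KRT8 signal against the GAPDH 3' to 5' signal ratio of the same array, with a dashed line at a ratio of 3; right, GATA3 signal against the median signal of the same array (all axes log; 27 arrays; circles male lines, squares female lines, open symbols absent calls). KRT8 falls off to the right, down to 31.1 on the array of line 2906, and 3 of the 4 arrays with the highest medians carry GATA3 signals of 456.1 to 618.6.

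For the comparison of male with female lines, arrays were first averaged within each line. KRT8 averaged 9.74 ± 0.16 in male lines and 8.32 ± 1.58 in female lines (SD, n = 5 each), a difference of 1.43 ± 0.59 (SE) that did not pass (adjusted p = 0.774 by limma over all probe sets). The groups did not overlap: the male line means ran between 9.61 and 9.96 and the female ones between 5.56 and 9.34. That order, with every male line above every female line, held for 0.624% of all probe sets, and for 0.858% when line 2906 was left out. Without line 2906 the difference was 0.74 ± 0.19, and without the 6 arrays with a high GAPDH ratio, 5 of them female, it was 0.34 ± 0.19. Without those 6 arrays the groups overlapped: female line 2406 kept only its array at 10.01, above the 9.96 of male line 306. GATA3 averaged 7.87 ± 0.60 in male lines and 8.17 ± 1.18 in female lines, a difference of -0.30 ± 0.49 (adjusted p = 0.897), which turned to 0.19 without line 2906. In this comparison 0.0578% of probe sets passed.

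Between the families, KRT8 averaged 8.50 ± 1.97 in the 4 quadruplet lines and 9.56 ± 0.45 in the 3 triplet lines (SD over lines). The difference of -1.05 ± 0.91 (SE) did not pass (adjusted p = 0.735 by limma), and without line 2906 it was -0.07. GATA3 averaged 8.18 ± 1.36 in quadruplet lines and 7.98 ± 0.56 in triplet lines, a difference of 0.20 ± 0.66 (adjusted p = 0.937) that turned to -0.46 without line 2906. Of all probe sets 0.0761% passed.

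Whether GATA3 and KRT8 move together was asked over the line means. Over 10 lines Pearson r was -0.698 (permutation p = 0.0892, 2-sided, 0.178 after Benjamini-Hochberg adjustment over both coefficients) and Spearman rho was -0.006 (permutation p = 1, adjusted 1). The negative r rested on line 2906, which had the highest GATA3 and the lowest KRT8: without it r was 0.448 (permutation p = 0.230) and rho 0.367 (permutation p = 0.339) over 9 lines. Without lines 2906 and 906, the farthest from the median GATA3 level, r was 0.313 (permutation p = 0.467). Neither a common nor an opposed movement of the genes was therefore shown over these lines. Of 10132 other genes, 4.08% had an r with GATA3 as low as that of KRT8, and 9.78% had one as large in either direction. With KRT8 as the reference, 11.4% had an r as low as that of GATA3 and 22.2% one as large in either direction.

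The single arrays gave no closer relation. Over 27 arrays GATA3 and KRT8 had r = -0.286, over 26 arrays without line 2906 r = 0.222, and over the deviations of arrays from their line mean r = -0.030. With the other GATA3 probe set r over 10 lines was -0.562. Line 906 shows the range of combinations, since its array with 527.2 for GATA3 had the highest KRT8 signal of all, while its array with 618.6 had the lowest KRT8 signal of the line.

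**Figure D3:**
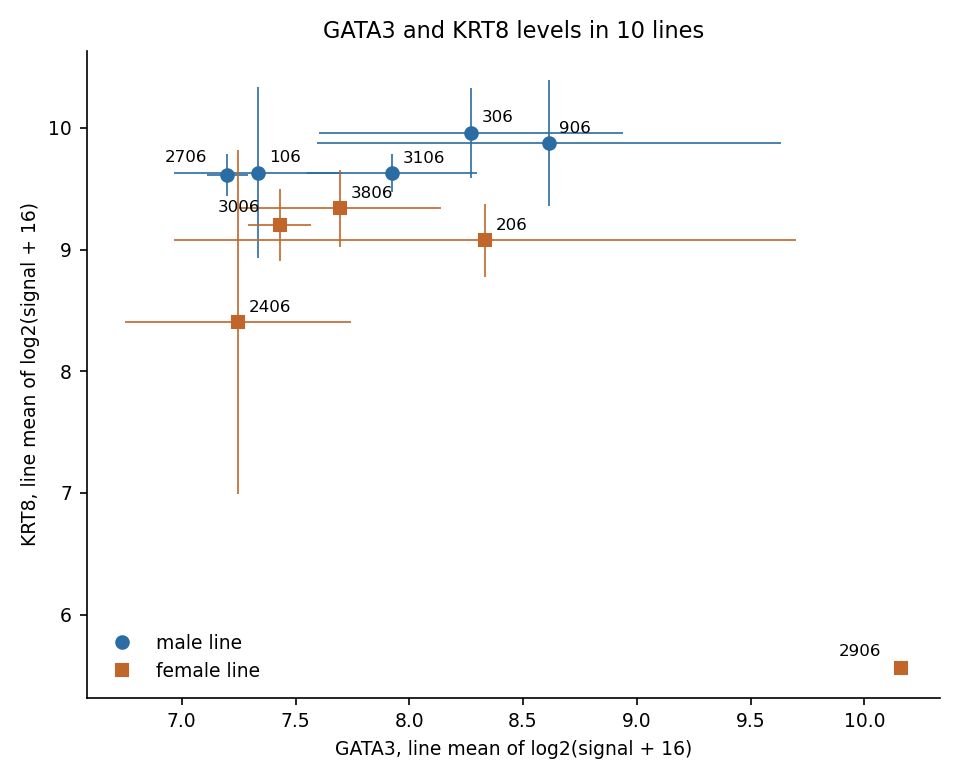
Line means of log2(signal + 16) for GATA3 (horizontal) and KRT8 (vertical) in 10 lines; circles are male lines, squares female lines, and bars the SD over the 2 or 3 arrays of a line (line 2906 has 1 array and no bar). Line 2906 lies alone at 10.16 and 5.56, and the other 9 lines lie within 7.20 to 8.61 for GATA3 and 8.40 to 9.96 for KRT8.

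CDX2 stayed at the level of undetected probe sets in every line. The signal of its brighter probe set ran between 43.1 and 136.3 with a median of 83.4, and it was above the array median on 2 of 27 arrays. The other probe set ran between 2.4 and 154.4 with a median of 42.3 and was above the array median on 0 arrays. On the array of line 2906, where GATA3 was highest, the brighter CDX2 probe set had a line mean of 6.79, against 6.59 ± 0.16 in the other 9 lines (SD over lines). Neither probe set passed the filter on low values, so neither was tested with the rest. The line means of the brighter one spanned 0.50, and 0% of its variance lay between lines. The CDX2 probe sets did not follow each other over arrays (r = -0.024), unlike those of GATA3. A level of CDX2 below what this array detects could not be seen here.

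By their brightest probe sets, the keratins that pair with KRT8 did not share its low level in line 2906. KRT18, the type I partner of KRT8, was called present on all 27 arrays. Its line mean was 7.80 in line 2906 and 7.57 over the other 9 lines. A dimmer KRT18 probe set, called present on 1 array, had 5.26 against 5.56. KRT19, a type I keratin of simple epithelia, was also present on all 27, with 11.99 in line 2906, the highest of the lines, and 11.32 over the others. Its other probe sets differed in direction: MmugDNA.22456.1.S1_at had 10.18 in line 2906 against 9.74 in the others, and another had 8.36 against 9.55. Neither KRT18 (adjusted p = 0.279) nor KRT19 (0.140) differed among lines by limma's F test. KRT7, a type II keratin of trophoblast, was called absent on all 27 arrays, at 11.4 to 31.5 intensity units.

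Of the other GATA factors on the array, GATA6, a factor of primitive endoderm, was called present on all 27 arrays, with line means between 7.78 in line 106 and 10.87 in line 2406, and differed among lines (adjusted p = 0.0314 by limma). GATA4, which acts with it in endoderm, was called present on 6 arrays and ran between 7.55 and 8.12. GATA1, of the blood lineage, was present on 0. GATA2, a trophoblast and blood factor, was present on 0 arrays by its brightest probe set and on 11 by MmuSTS.4819.1.S1_at. That probe set had 8.15 in line 2906 against 6.62 in the other 9 lines. Of the CDX family, CDX1 was called present on 0 arrays and CDX4 on 4.

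**Figure D4:**
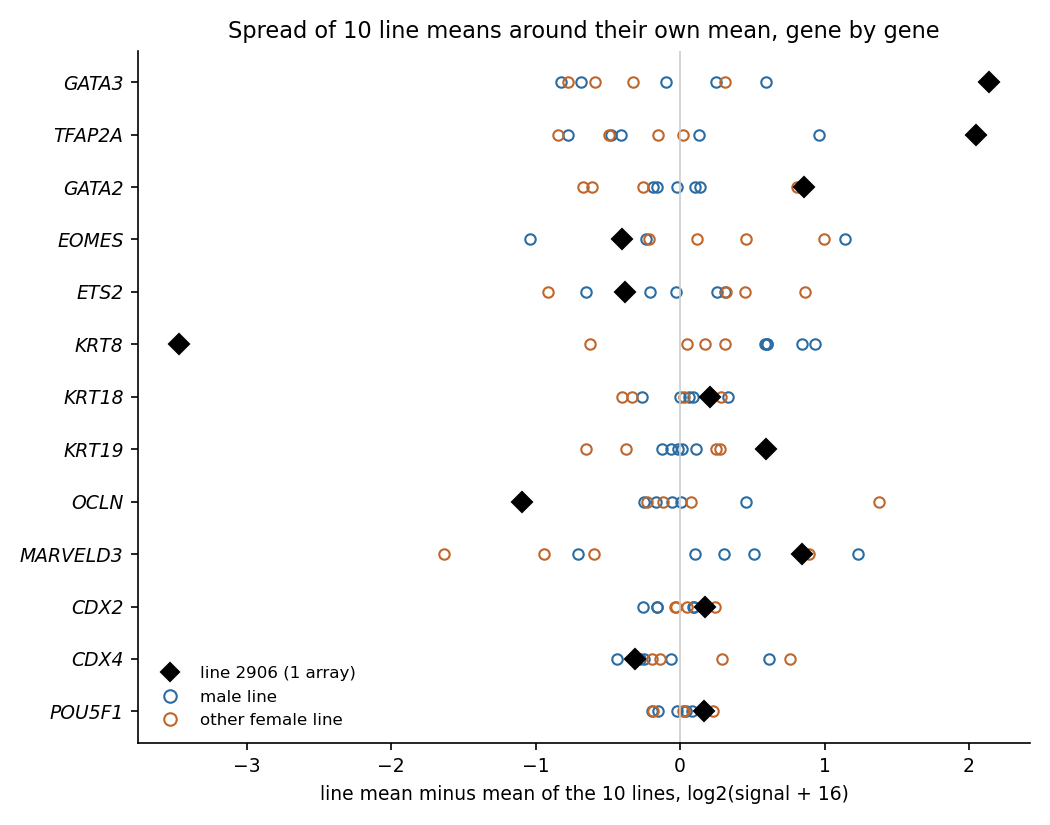
Line means of GATA3, KRT8, CDX2 and 10 related genes, each minus the mean of its 10 lines, on the log2(signal + 16) scale. Black diamonds are line 2906 (1 array), blue circles male lines and orange circles the other female lines; GATA3 and TFAP2A are far to the right in line 2906 and KRT8 far to the left, while KRT18, KRT19 and POU5F1 lie within 1 of their mean in every line.

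The wider set of trophoblast genes was detected in part. Of 28 listed genes, 22 were on the array, 10 of them were called present on no array by their brightest probe set, GATA2 included, and 5 on all 27, beside 22.9% and 49% of all genes. KRT7, VGLL1, CYP19A1 and PPARG, which are expressed in placental trophoblast, were among those never called present. Those present throughout were INSL4, an insulin-like peptide of placental trophoblast, with a mean of 12.68 on the log2(signal + 16) scale, and TFAP2C, TEAD4, MSX2 and ETS2, which are also active outside trophoblast. Of 13 that passed the filter, 3 differed among lines: GATA3, EOMES and ETS2, beside 17.4% of all genes. The count was 2 without line 2906 (13.2% of all genes) and 2 when the 6 arrays of high GAPDH ratio were set aside (8.23%), 1 without line 2706 (16.4%), and 5 without 1 array of line 106 (164.1 for GATA3; 23.5%) or of line 306 (172.5; 16.5%). EOMES, a T-box factor of mouse trophoblast stem cells that also acts in primitive streak, was highest in line 2706 (9.56) and lowest in line 106 (7.38), with 8.01 in line 2906 (adjusted p = 0.0289). ETS2 was highest in line 3006 (12.57) and lowest in line 3806 (10.79), with 11.32 in line 2906 (adjusted p = 2.90e-04). Neither had its extreme in line 2906, and both still passed without it (adjusted p = 0.0272 and 2.29e-04), in contrast with GATA3, though a difference between them and GATA3 was not tested. The 13 genes spanned a median of 1.53 over line means and 1.09 without line 2906, against 0.859 and 0.710 over all genes.

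The epithelial genes were mostly detected. Of 39 listed genes, 31 were on the array. By their brightest probe sets, 18 of these were called present on all 27 arrays and 4 on none, beside 49% and 22.9% of all genes. EPCAM, CLDN6, TJP1 and DSP, of cell adhesion, tight junctions and desmosomes, were among those present throughout. The 4 never called present were CDH1, KRT7, LLGL2 and EVPL. Of 27 that passed the filter, 6 differed among lines, again beside 17.4% of all genes: KRT8, MARVELD3, OCLN, TJP3, PKP3 and EPCAM. The count was 4 without line 2906 (13.2% of all genes), 3 when the 6 arrays of high GAPDH ratio were set aside (8.23%), 2 without line 3806 (12.1%) and 3 without either of 2 arrays of that line (486.9 and 727.3 for KRT8; 14.2% and 14.1%). OCLN, the tight junction protein occludin, was with KRT8 the only one of the 6 that was lowest in line 2906, at 6.31 against 7.53 in the other 9 lines (adjusted p = 0.0396, and 0.0701 without line 2906). Of the others on the array, DSG2, a desmosomal cadherin, was also lowest there, at 8.74 against 9.66, and did not pass (adjusted p = 0.129). MARVELD2, of tight junctions, was at 5.35 against 6.17, its lowest line mean too, and was not tested because it did not pass the filter. MARVELD3, of the same protein family, was highest in line 906 (9.08) and lowest in line 206 (6.21), with 8.69 in line 2906 (adjusted p = 0.00409). TJP3 and PKP3 were highest in line 3806 (8.49 and 7.97) and were called present on 6 and 2 arrays. Of the 27, 18 were higher in line 2906 than the mean of the other 9 lines, with a median difference of 0.23, against 54.2% and 0.05 over all genes.

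The genes whose line means ran most like GATA3 over the 10 lines, among 10133 that passed the filter and were called present at least once, were TFAP2A (r = 0.970), LENG9 (0.951), FAM83A (0.949), CPAMD8 (0.943) and OLA1 (0.941). The lowest coefficients were those of PDHX (-0.937), CWC22 (-0.922) and CETN1 (-0.920). TFAP2A, a transcription factor of trophoblast, amnion and surface ectoderm, was the only one of the first 5 that was also among the first 5 over the 9 lines without line 2906 (r = 0.911). There MED26 (0.940), HOXD1 (0.938), TMEM209 (0.918) and SWT1 (0.916) stood beside it.

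TFAP2A also ran with GATA3 over single arrays, but it had been picked by r over line means of these same arrays. A high r over arrays was thereby favoured and is no separate support. The TFAP2A signal was 944 intensity units on the array of line 2906, and on the other 26 it ran between 87.4 and 660.2. The same arrays were high: 660.2 and 626.6 in line 906, whose other array had 194.9, 484.7 in line 306, whose others had 202.3 and 133.6, and 425.6 in line 206, whose other had 108.8. In lines 106, 2706, 3006 and 3806, the array highest in TFAP2A was not the one highest in GATA3. In lines 106, 206, 306 and 906, the array with the high median had the highest TFAP2A signal of its line, an order whose share over all probe sets was not counted. Over 27 arrays the genes had r = 0.913 and over 26 without line 2906 r = 0.882, with arrays sharing line and scaling. Over deviations, which leave out the line means used for the choice, r was 0.849. These coefficients were not set beside those of all genes. TFAP2A was called present on 16 arrays and missed the threshold among lines (adjusted p = 0.0545 by limma's F test).

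For KRT8, the line means most like its own were those of MCMBP (r = 0.986), USP11 (0.985), SOCS1 (0.984), RMND5A (0.983) and UQCRC2 (0.981), and the least like it those of ARID1A (-0.968), LOC708880 (-0.967) and MAPK8IP1 (-0.966). Each of the first 5 was also low in line 2906, which a choice by r over 10 lines favours when KRT8 is so low there. MCMBP had 8.36 against 10.08 in the other 9 lines, and UQCRC2, a subunit of respiratory complex III, 9.57 against 11.82. Over the 9 lines without line 2906 the first were TMEM51 (0.957), PDLIM1 (0.940), USP11 (0.934), RNGTT (0.932) and VANGL2 (0.928), so USP11 alone was among the first 5 both times. No keratin, claudin or other gene of the epithelial list was among these genes.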

How the data were processed

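Each probe set has 1 deposited intensity per array, which the authors obtained with GCOS (per the submitters' processing notes, which name no version). Trimmed of 2% at each end, every array had a mean of 500.035 to 500.041, so the values had been scaled to a common level. They were used as log2(signal + 16) with no further normalization. The authors' detection calls, sex and parents came from other deposited tables, and 1 blank cell was filled from a second copy. No 2 arrays shared more than 0.231% of their values. Of 52707 probe sets other than controls, 24956 carried 1 gene symbol. Those above the array's median signal on at least 3 arrays were tested (32856 probe sets, 11299 genes). Precision is limited by the number of arrays.

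Lines were compared with limma 3.58.1 (R 4.3.3) on 27 arrays (F test, and 45 contrasts of lines), and sex and family on line means. P-values were adjusted by Benjamini-Hochberg over all probe sets (within each pair of lines), with a threshold of 0.05. Correlations of line means were tested with 100000 permutations of line names, and those over arrays are descriptions. A one-way random effects model gave the percentage of variance that lay between lines. The fits were checked on simulated data. Alternatives were pseudocounts of 1 and 64, no filter or the 75th percentile, quantile normalization, median centring, leaving out each array or line, the array letter as a replicate block, leaving out the 6 arrays with a GAPDH ratio over 3 or the 4 with the highest median, the ratio as a covariate, the line as a random block, sex as a covariate for family, and the other GATA3 probe set. Leaving out line 2906 with the 4 arrays or with further lines was added after seeing the data.

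The genes, 9 marker lists, tests and rules were chosen with earlier results of these data known. Named were the GATA and CDX genes, KRT7, KRT18 and KRT19, up to 4 further genes per list with the widest span among those that passed, up to 4 of those called present on all or no arrays, the genes most and least like GATA3 and KRT8, and POU5F1, SOX2 and NANOG. EPCAM, DSG2, MARVELD2, BMP7, ID1 and INSL4 fall outside this rule and were named after their values were seen. Plots were drawn with matplotlib 3.10.9.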

Additional observations from a re-analysis of the deposited data

Results flagged for a closer look

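Within groups of 4 to 10 line means, a line was marked where its distance to the nearest other line took up an unusually large share of the group's range. Of 20 such groups formed for the 5 probe sets (all 10 lines, male, female and quadruplet lines), 5 held a marked line, where about 1 in 20 would be marked by chance. Line 2906 stood apart for KRT8 among all 10 lines, among the female lines and among the quadruplet lines, with its level of 5.56 each time, and for GATA3 among all 10 lines, with 10.16. These 4 marks rest on 1 array. Line 206 stood apart among the female lines for the dimmer CDX2 probe set, at 6.47, a probe set that was called absent on every array.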

How the results depend on the processing

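Of 49 alternatives tried, GATA3 differed among lines in 38, and KRT8 in 44 of 48. GATA3 lost its call with no filter on low values (adjusted p = 0.0539), with the GAPDH ratio as a covariate (0.0716), with the array letter as a replicate block (0.0887), with the other probe set (0.197), without the 6 arrays with a GAPDH ratio over 3 (0.455) and without line 2906 together with the 4 arrays of highest median (0.341). KRT8 lost it in the last 2 (0.277 and 0.160), and kept it with the replicate block (0.0325). Leaving out 1 array or line gave adjusted p-values of 0.00700 to 0.177 for GATA3 and 2.88e-05 to 0.250 for KRT8. The letters were not taken to pair the arrays, since not every pair was over 0.1: over 77 pairs with the same letter the deviations from the line mean had a median r of 0.064 (highest 0.529, 30 over 0.1), against -0.026 over 223 pairs with different letters (highest 0.391, 47 over 0.1).

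The 3 trophoblast genes called became 6 without the 4 arrays of highest median (20.2% of all genes), and ran between 1 and 5 over leave-one-out fits. The 6 epithelial genes called became 3 with median centring (9.93% of all genes) and 3 without those of high GAPDH ratio (8.23%), and ran between 2 and 9. The correlation of GATA3 and KRT8 ran between -0.797 and 0.448 over leave-one-out fits. It turned positive without line 2906 (0.448), without it and line 906 (0.313), without it, 906 and 206 (0.573), and without it and the 4 arrays (0.553). Over single arrays it was -0.286 and over their deviations -0.030. GATA3 in male minus female lines was 0.0173 without arrays of high GAPDH ratio and ran between -0.54 and 0.19 without single lines. GATA3 in quadruplet minus triplet lines was -0.39 without those arrays and -0.12 with the line as a random block, and ran between -0.46 and 0.52 without single lines, with -0.12 without line 106. None of these passed. KRT8 kept its sign in all 19 and 17 alternatives for sex and family and passed in none.

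CDX2 was tested only without the filter, where neither probe set passed limma's F test (adjusted p = 0.937 and 0.603). The stricter filter left it out too, and KRT8 and CDX2 had no other single-gene probe set passing the filter. What lies below the present call on these arrays is limited by the background of each array, and a line with 1 array has no error of its own.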

Other observations

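Genes of amnion and surface ectoderm, a tissue that also expresses GATA3, varied among lines. The array held 15 of these genes, 12 were tested and 6 differed among the 10 lines by limma's F test (5 without line 2906, and 3 without the 6 arrays with a GAPDH ratio over 3), beside 17.4%, 13.2% and 8.23% of all genes. GATA3 itself is on this list and was among the 6. IGFBP3, which binds insulin-like growth factors, was highest in line 906 (9.96) and lowest in line 2406 (7.17), with 8.49 in line 2906. GABRP and BAMBI were likewise highest in line 906 (8.77 and 11.87), the line with the second highest GATA3 level. GABRP was called present on only 2 arrays. VTCN1 was highest in line 306 (11.58) and lowest in line 3006 (9.90), and was called present on all 27 arrays.

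Of 15 BMP response genes tested, 6 differed among lines (2 without line 2906, and 2 without the 6 arrays with a GAPDH ratio over 3), beside the same 17.4%, 13.2% and 8.23% of all genes. As a whole the list was not higher in line 2906: 6 of the 15 were above the mean of the other 9 lines, with a median difference of -0.07, against 54.2% and 0.05 over all genes. Of the 6 that differed, 4 were highest in line 2906: SMAD6 (10.43 against 8.85 in the other 9 lines), BMP4 (10.62 against 9.61), SMAD5 (13.01 against 12.07) and BMP7 (8.96 against 8.44). SMAD6 is an inhibitor of BMP signalling, BMP4 and BMP7 are its ligands and SMAD5 one of its effectors. None of these 4 passed without line 2906 (adjusted p = 0.200, 0.0885, 0.0758 and 0.0588 by limma), and the other 2, SMAD7 and BAMBI, did. ID1, a direct target of BMP signalling, was lowest in line 2906 (10.57 against 11.25). No difference between these genes was tested.

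Fibroblast and feeder genes were low in line 2906, whose only array also had the highest GAPDH ratio. Of 11 tested, 3 differed among lines by limma's F test (2 without line 2906, and 2 without the 6 arrays with a GAPDH ratio over 3). Of all genes, 17.4%, 13.2% and 8.23% did. The summed signal of the 11 was 11707 intensity units on the array of line 2906, against 13633 to 49425 on the other 26. In that line 10 of the 11 were below the mean of the other 9 lines, while 54.2% of all genes were above it. COL1A1, the main fibrillar collagen, was at 5.29 there against 9.59 and was called absent. The part of this in the GATA3 and KRT8 levels was not tested. The summed signal of the 13 tested trophoblast genes was higher on that array than on the others (23882, against 10240 to 22577). Bright genes such as INSL4 add most to that sum. Gene by gene, 7 of the 13, GATA3 included, were above the mean of the other 9 lines there, beside 54.2% of all genes. The median difference was 0.64, against 0.05 over all genes.

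Among genes of the intestine and the posterior body, where CDX2 also acts, 9 of 14 were called present on no array, beside 22.9% of all genes. Of 7 tested, 2 differed among lines by limma's F test (1 without line 2906, and 1 without the 6 arrays with a GAPDH ratio over 3). Of all genes, 17.4%, 13.2% and 8.23% did. VIL1, a microvillus protein, was at 5.79 in line 2906, against 8.87 in the other 9 lines, and differed among lines with and without line 2906 (adjusted p = 2.82e-06 and 1.48e-04). HNF4G, an intestinal transcription factor, was at 7.83 there against 9.78 and passed with line 2906 alone (adjusted p = 0.0155, and 0.218 without it).

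Of 9 endoderm genes tested, 4 differed among lines (4 without line 2906, and 2 without the 6 arrays with a GAPDH ratio over 3), beside 17.4%, 13.2% and 8.23% of all genes. SOX17, FOXA2 and GATA6 were each highest in line 2406 and lowest in line 106, and AFP was highest in line 906. Of 9 pluripotency genes tested, 1 differed, beside 17.4% of all genes, and a list this short cannot show a lower share: ZFP42, lowest in line 2906 (8.25 against 9.39). The array held 4 lymphoid genes, and no array called 3 of them present, beside 22.9% of all genes. Of the 2 tested, 0 differed by limma's F test.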
